A study of Mus musculus with 4 samples.

Results

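The genes examined were 10 that take part in receiving or restraining signals of interferons and other cytokines in macrophages. They comprised the receptor subunits Ifnar1, Ifnar2, Ifngr1 and Ifngr2, the Janus kinases Jak1, Jak2 and Tyk2, and the feedback inhibitors Socs1, Socs3 and Cish. They were taken by symbol from the 17013 genes listed for mouse bone marrow-derived macrophages, and all 10 were among the 12470 genes tested. The question was whether the receptors, the kinases or the inhibitors moved together with the interferon-induced genes when macrophages were given necrotic fat.

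Type I interferons bind a receptor made of IFNAR1 and IFNAR2, and interferon gamma binds one made of IFNGR1 and IFNGR2. The receptor chains carry Janus kinases, TYK2 and JAK1 on the type I receptor and JAK1 and JAK2 on the interferon gamma receptor, which phosphorylate STAT transcription factors. Genes of the SOCS family are themselves induced by STATs, and their proteins dampen the same receptors, so SOCS transcripts are widely read as a record of recent cytokine signalling in macrophages.

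The cells came from wild-type C57BL/6 male mice, whose age is not given in the sources used here, and were grown from bone marrow with M-CSF. All 4 cultures stood on Transwell inserts with artificial necrotic bone fluid (aNBF) and were harvested after 24 h. The 2 Con libraries came from the fat control medium, which is the middle layer of a freeze-thawed digest of abdominal fat, and the 2 Fat libraries from the high-fat-containing medium, which is its top layer. The sample names give the medium and a replicate number, and nothing says whether the replicates were separate mice or cultures, so the p-values measure only the spread between these libraries. Total reads ranged from 33573852 to 40785872 per library, and a single read was worth between 0.0244 and 0.0295 CPM, the unit in which reads are scaled to library size. Replicates of 1 medium differed by more than counting noise, with a chi-square per gene of 13.2 in Con and 13.0 in Fat, so no library repeated another. Macrophage markers were abundant, with Cd68 at 777.7 to 892.4 CPM, and Emr1, the older symbol of Adgre1 (F4/80), at 1000.4 to 1215.8 CPM.

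In Fat, Socs1, Socs3 and Cish fell in company with the interferon-induced genes, Jak2 fell slightly, and no interferon receptor subunit was called. Of the 10 genes, 4 were called lower and 0 higher by limma at an adjusted p-value under 0.05, when 5.0% of all genes tested were called lower, 3.99% higher and 9.0% in either direction. Ifngr2 and Tyk2 were lower as well if the p-value was left unadjusted, a threshold that 24.1% of all genes passed, and none of the 10 was higher at it. On recovered reads, edgeR and DESeq2 each called 4 of the 10 lower and none higher. With the replicate number as a block in limma 6 were called lower, beside 20.2% of all genes in either direction. Both Fat libraries lay below both Con libraries for 8 of the 10 and above them for 0, where 26.2% of all genes were below, 29.4% above and 55.6% without overlap in either direction. The median log2 fold change was -0.06 for the 4 receptors, -0.17 for the 3 kinases and -1.02 for the 3 inhibitors, beside 0.01 for all genes tested.

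**Figure D1:**
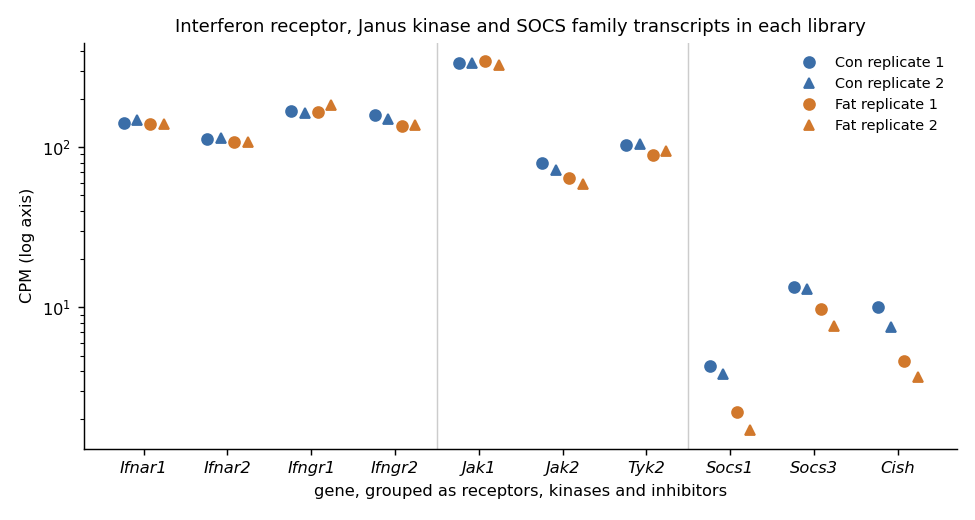
CPM (log axis) of each of the 10 genes in the 4 libraries, with circles for replicate 1, triangles for replicate 2, blue for Con and orange for Fat, and vertical lines between receptors, kinases and inhibitors. The points of the receptors and of Jak1 lie close together, and those of Socs1, Socs3 and Cish separate by medium.

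The levels of the genes were compared on the TPM scale, which takes account of gene length. Ifngr1 was the most abundant, at 167.4 to 192.5 TPM over the 4 libraries, followed by Ifngr2 at 144.5 to 168.1 TPM and Jak1 at 135.5 to 144.0 TPM. Ifnar2 stood at 75.05 to 77.2 TPM, Ifnar1 at 44.0 to 44.9 TPM, Tyk2 at 40.3 to 46.2 TPM and Jak2 at 25.8 to 34.3 TPM. The inhibitors were the least abundant, with Socs3 at 6.21 to 10.7 TPM, Cish at 3.77 to 10.2 TPM and Socs1 at 2.82 to 7.08 TPM. Neighbours in this order whose ranges overlapped were Ifngr1 and Ifngr2, Ifnar1 and Tyk2, Socs3 and Cish, and Cish and Socs1. Thus the transcripts of the interferon gamma receptor chains were more abundant than those of the type I receptor chains in each library. Protein was not measured in these libraries.

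Ifnar1 encodes a chain of the type I interferon receptor that carries TYK2. Its level was 141.1 and 146.8 CPM in Con replicates 1 and 2 and 140.1 and 139.5 CPM in Fat replicates 1 and 2. Both Fat libraries lay just below both Con libraries. The ratio of Fat to Con was 0.972, with a 95% confidence interval from 0.892 to 1.06 (limma, log2 fold change -0.04, standard error 0.05, adjusted p = 0.682).

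Ifnar2 encodes the other chain of that receptor. It stood at 111.6 and 114.3 CPM in Con and 107.5 and 107.6 CPM in Fat. The Fat libraries were again both below the Con libraries by a small margin, with a ratio of 0.952 and a 95% confidence interval from 0.876 to 1.04 (limma adjusted p = 0.462). In the GENCODE annotation 9.92% of the exonic bases of Ifnar2 are shared with another gene on the same strand, so some of its reads could belong to that gene.

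Ifngr1 encodes the chain that binds interferon gamma. It was at 169.0 and 163.7 CPM in Con and 164.6 and 182.5 CPM in Fat. The media overlapped, because Fat replicate 2 was the highest of the 4 libraries and Fat replicate 1 lay between the Con libraries. The ratio was 1.04, with a 95% confidence interval from 0.938 to 1.16 (limma adjusted p = 0.631), and its log2 fold change of 0.06 turned to -0.02 without Fat replicate 2.

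Ifngr2, the signalling chain that carries JAK2, was at 159.0 and 149.1 CPM in Con and 134.9 and 136.7 CPM in Fat. Both Fat libraries were below both Con libraries. The ratio was 0.882, with a 95% confidence interval from 0.805 to 0.966, and it was not called after adjustment (limma, log2 fold change -0.18, standard error 0.06, unadjusted p = 0.0134, adjusted p = 0.0965). The lower limits of the 95% confidence intervals of the 4 subunits lay between -0.31 and -0.09 on the log2 scale.

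**Figure D2:**
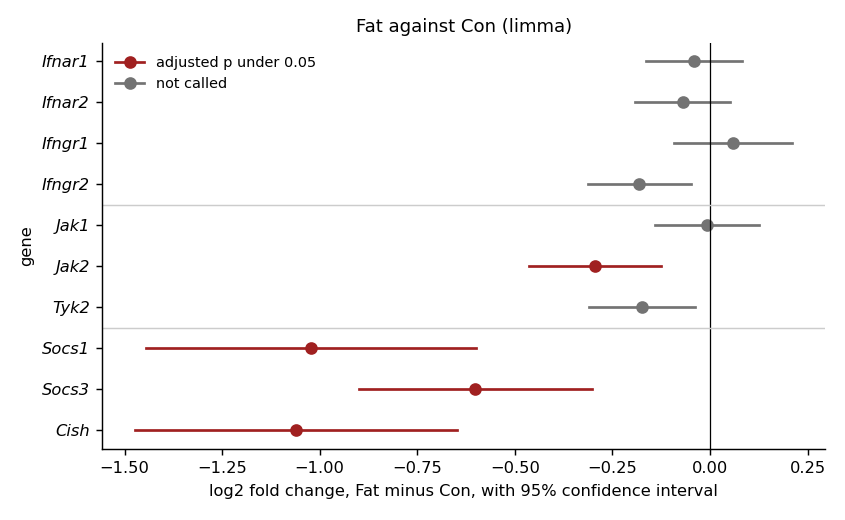
Log2 fold change of Fat against Con for each of the 10 genes (points) with its 95% confidence interval from limma (lines), in red where the adjusted p-value was under 0.05. The intervals of Socs1, Socs3, Cish and Jak2 lie below 0, as do those of Ifngr2 and Tyk2, which were not called after adjustment.

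Among the kinases, Jak1, which serves both interferon receptors, was at 336.5 and 335.4 CPM in Con and 344.2 and 324.3 CPM in Fat. The Fat libraries lay on either side of the Con libraries. Its ratio was 0.995, with a 95% confidence interval from 0.907 to 1.09 (limma adjusted p = 0.955), and its log2 fold change of -0.01 was 0.02 with TPM and 0.04 without Fat replicate 2.

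Jak2, which pairs with IFNGR2 and also serves the receptors for GM-CSF and IL-3, was at 79.2 and 71.7 CPM in Con and 64.1 and 58.9 CPM in Fat. Both Fat libraries were below both Con libraries. Jak2 fell by 18.5%, with a log2 fold change of -0.29 (standard error 0.07, 95% confidence interval -0.46 to -0.13, limma adjusted p = 0.0476). This call was the closest to the threshold, and it was lost without Con replicate 1 (log2 fold change -0.22, adjusted p = 0.169), without Fat replicate 2 (-0.23, adjusted p = 0.222), with TPM (-0.26, adjusted p = 0.129) and with no filter or a stricter filter on low values (adjusted p = 0.0592 and 0.054).

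Tyk2, the kinase of the type I and IL-12 receptors, was at 102.8 and 104.4 CPM in Con and 88.7 and 95.1 CPM in Fat. The Fat libraries were both lower, with a ratio of 0.886 and a 95% confidence interval from 0.807 to 0.973, and Tyk2 was not called (limma, log2 fold change -0.17, standard error 0.06, unadjusted p = 0.0181, adjusted p = 0.115).

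The inhibitors fell by more. Socs1 encodes an inhibitor that binds Janus kinases directly and is best known for restraining interferon gamma. It had 147 and 143 reads in Con and 83 and 70 reads in Fat, which correspond to 4.33 and 3.81 CPM in Con and 2.22 and 1.71 CPM in Fat. Both Fat libraries were far below both Con libraries. The mean was 4.07 ± 0.369 CPM (SD, n = 2) in Con and 1.97 ± 0.365 CPM (SD, n = 2) in Fat, so Socs1 fell by 51.7% (limma, log2 fold change -1.02, standard error 0.18, adjusted p = 0.017). With each library left out in turn the log2 fold change lay between -1.20 and -0.84, and the call was lost without Con replicate 1 (adjusted p = 0.0635).

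Cish encodes CIS, a SOCS protein classically induced by STAT5 downstream of cytokines such as GM-CSF and IL-3. It was at 10.1 and 7.49 CPM in Con and 4.61 and 3.68 CPM in Fat, from 343, 281, 172 and 151 reads. Con replicate 1 was the highest library, and both Fat libraries were below both Con libraries. The mean was 8.80 ± 1.85 CPM (SD, n = 2) in Con and 4.15 ± 0.654 CPM (SD, n = 2) in Fat, so Cish fell by 52.9% (limma, log2 fold change -1.06, standard error 0.18, adjusted p = 0.0144). It was the member that stayed called with each library left out in turn, between -1.28 and -0.85. In the annotation 15.96% of its exonic bases are covered by genes on the opposite strand, and the strand setting of the counting is not given in the sources used here.

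Socs3 encodes the inhibitor of receptors that signal through gp130, such as that of IL-6, and of the G-CSF receptor. It was at 13.3 and 13.0 CPM in Con and 9.81 and 7.63 CPM in Fat. The Con libraries were nearly equal, and both Fat libraries lay below them. Socs3 fell by 33.8% (limma, log2 fold change -0.60, standard error 0.13, adjusted p = 0.0298). The call was lost without Con replicate 1 (log2 fold change -0.59, adjusted p = 0.0782), without Fat replicate 2 (-0.42, adjusted p = 0.0942) and with TPM (-0.57, adjusted p = 0.0623). When limma was run without its mean-variance trend, which left 19 genes called higher and 12 lower in all, none of the 10 genes was called, and the adjusted p-value was 0.0841 for Socs1, 0.0993 for Cish, 0.129 for Socs3 and 0.179 for Jak2.

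The start regions of the 10 genes were read for the 2 letter patterns that interferon-activated factors recognise. These are the gamma-activated sequence of STAT dimers, searched as TTCNNNGAA, and the interferon-stimulated response element, searched as GAAA, any 2 bases and GAAA again, on both strands. Windows of 300 bases, 250 before and 50 after the start, were available for all 10 genes from RefSeq (GRCm38.p6). The labels name GRCm39 for the deposited values, so these positions are not on the build of the files. Among the 10 genes, 4 windows held the STAT pattern, 1 held the response element and 5 held neither. Over 32851 windows of all genes the shares were 8.30% for the STAT pattern and 3.44% for the response element. The STAT pattern was in Socs3 and Cish but not in Socs1, and also in Ifnar1 and Ifnar2, which were not called. The stretches shown hold the matches of the 3 inhibitors and, for comparison, that of Ifnar2, a receptor gene that was not called. Capitals mark the matches.
Socs1: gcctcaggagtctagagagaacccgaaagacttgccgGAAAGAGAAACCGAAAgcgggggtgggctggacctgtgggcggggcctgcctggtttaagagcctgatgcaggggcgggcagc
Socs3: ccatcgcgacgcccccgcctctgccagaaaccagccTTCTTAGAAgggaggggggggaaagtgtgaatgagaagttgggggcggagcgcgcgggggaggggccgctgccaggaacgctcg
Cish: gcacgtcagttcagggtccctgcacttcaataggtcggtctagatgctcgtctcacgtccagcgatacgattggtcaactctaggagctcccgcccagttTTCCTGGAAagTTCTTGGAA
Ifnar2: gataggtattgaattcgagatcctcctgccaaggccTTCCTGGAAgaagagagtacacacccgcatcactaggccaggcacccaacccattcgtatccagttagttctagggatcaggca
The Socs1 stretch is chr16:10785537-10785656 on the minus strand, bases -120 to -1 from the start, and holds a pair of overlapping response elements, GAAAGAGAAA at -83 to -74 and GAAACCGAAA at -77 to -68. The Socs3 stretch is chr11:117969437-117969556 on the minus strand, bases -190 to -71, with TTCTTAGAA at -154 to -146. The Cish stretch is chr9:107296559-107296678 on the plus strand, bases -100 to 20, with TTCCTGGAA at 1 to 9 and TTCTTGGAA at 12 to 20. The Ifnar2 stretch is chr16:91372533-91372652 on the plus strand, bases -250 to -131, with TTCCTGGAA at -214 to -206, the same 9 letters as in Cish. Ifnar1 also held the STAT pattern, TTCACGGAA at -5 to 4, and the windows of Ifngr1, Ifngr2, Jak1, Jak2 and Tyk2 held neither. A match is a run of letters, not a shown binding site, and these windows leave out more distant sequence.

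The interferon-induced genes were set beside the 10 genes library by library. Of 19 genes induced by type I interferon, limma called 14 lower in Fat and 0 higher, with a median log2 fold change of -1.31. Of 20 type II (interferon gamma) genes it called all 20 lower, with a median of -1.34. Over all genes tested 5.0% were called lower. Both lists were chosen with earlier results of these data known, so their counts are a description and not independent evidence. On recovered reads the type I genes called lower numbered 13 with edgeR and 10 with DESeq2, and the type II genes 20 with each. Relative to the mean of Con, the type I median on the log2 scale was -1.0 in the first Fat library and -1.89 in the second. For the type II genes the medians were -1.03 and -1.68. For Socs1, Socs3 and Cish they were -0.84 and -1.20, so all of these lists were lowest in the same library. The receptors did not show this step, with medians of -0.05 and -0.06 in Fat replicates 1 and 2. The kinases had medians of -0.22 and -0.12, the values of Tyk2, while Jak2 stood at -0.23 and -0.36 and Jak1 at 0.04 and -0.05. The step was not particular to the inhibitors and interferon-induced genes. Medians also stepped down for markers of T and NK cells (-0.53 and -0.76), neutrophils (-0.20 and -0.32) and macrophages (-0.18 and -0.24). Those of B cells (-0.34 and -0.06) and of endothelial and stromal cells (-0.22 and 0.02) did not.

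**Figure D3:**
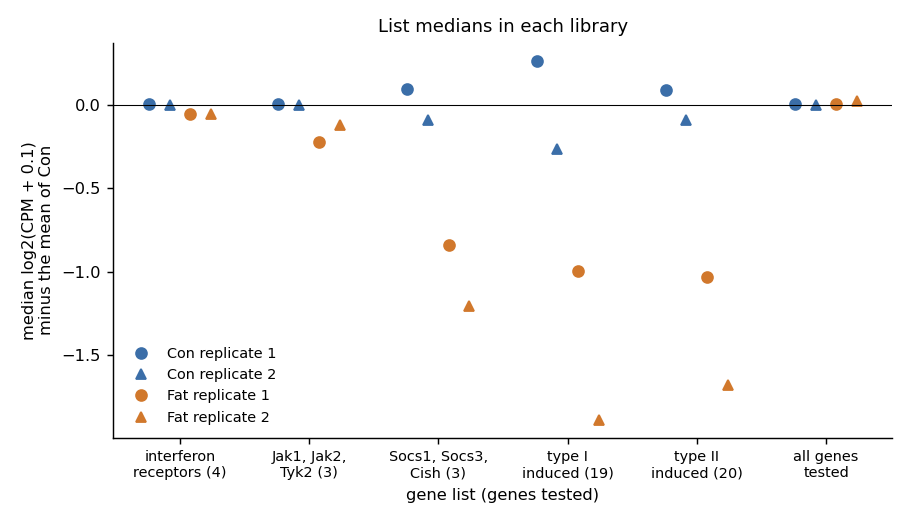
Median log2(CPM + 0.1) of each list minus its mean in Con, in each library, with circles for replicate 1, triangles for replicate 2, blue for Con and orange for Fat. The inhibitors and the interferon-induced lists lie between -0.84 and -1.89 in the Fat libraries, and the receptors lie at -0.05 and -0.06.

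Of 21 interferon genes sought, 2 were among the genes listed, and these were nearly absent from the reads. Ifng, the gene of interferon gamma, was hit by 13 reads in the first Con library, 17 in the second and 4 in each Fat library. It lay under the filter on low values, and when all genes were tested without the filter its log2 fold change was -1.35 (limma adjusted p = 0.0322). Ifnb1, the gene of interferon beta, was hit by 1 read in each Con library and by none in Fat, which is at or under the limit of 3 reads used for detection in each library, so no fold is given. The other 19 interferon genes of the list were not analysed here. Interferon gamma is made mainly by T and NK cells, and the summed level of 7 T and NK cell markers was 13.6 and 11.8 CPM in Con and 8.68 and 7.66 CPM in Fat. Of the 6 of these markers that were tested, limma called 0, with a median log2 fold change of -0.70. At an unadjusted p-value under 0.05 there were 4, all lower, edgeR and DESeq2 each called 0, and limma with the replicate block called 4 lower. Of all genes tested, 24.1% passed the unadjusted threshold and 20.2% were called with the block, in either direction. Both Fat libraries were below both Con libraries for 5 of the 6, beside 26.2% of all genes tested. None of the 7 was at 0 in Con. Fewer cells of a type and less RNA per cell cannot be told apart in bulk libraries, and the part of T and NK cells in the fall of Cish, Socs1 and Socs3 was not tested.

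Transcripts used as adipocyte markers also moved with the medium. The summed level of 8 adipocyte markers was 0.177 and 0.187 CPM in Con and 11.3 and 5.85 CPM in Fat, with Adipoq, Lep and Adrb3 at 0 reads in both Con libraries. The 2 that passed the filter, Cidec and Car3, were called higher, beside 3.99% of all genes tested. The cells these transcripts came from, and their part in the values of the 10 genes, were not tested. The 5 B cell markers summed to 23.8 and 22.8 CPM in Con and 18.2 and 22.0 CPM in Fat. The 5 neutrophil markers with a value summed to 361.4 and 318.9 CPM in Con and 309.2 CPM in each Fat library, and the 6 endothelial and stromal markers summed to 543.5 and 570.1 CPM in Con and 459.1 and 599.1 CPM in Fat. In these 3 lists limma, edgeR and DESeq2 each called 0 of the tested genes. At an unadjusted p-value under 0.05 there were 0 B cell, 2 neutrophil and 1 endothelial or stromal markers, all lower. That threshold was passed by 24.1% of all genes tested. With the replicate block 0 B cell and 2 neutrophil markers were called, both lower, and 1 endothelial or stromal marker in each direction.

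Downstream of the kinases, limma called 0 of the 8 genes reported, which were 6 STAT genes, Irf9 and Jak3. Of all genes tested, 9.0% were called in either direction. At an unadjusted p-value under 0.05 there was 1, Stat2, beside 24.1% of all genes, and edgeR and DESeq2 each called 0. Stat2, which transmits the type I signal, was at 206.4 and 157.2 CPM in Con and 151.8 and 100.9 CPM in Fat and was not called (log2 fold change -0.54, limma adjusted p = 0.133). It passed the threshold without Con replicate 2 (-0.74, adjusted p = 0.033) and without Fat replicate 1 (-0.84, adjusted p = 0.0058), and stood at -0.34 without Con replicate 1 (adjusted p = 0.352) and -0.25 without Fat replicate 2 (adjusted p = 0.421). Irf9, which binds DNA together with STAT2, had a log2 fold change of -0.23 (limma adjusted p = 0.284), which was -0.41 and called without Fat replicate 1 (adjusted p = 0.0279) and -0.05 without Fat replicate 2 (adjusted p = 0.865). The other STATs ranged from -0.53 for Stat4, a low-level gene, to 0.07 for Stat5b. Their values were -0.10 for Stat3, -0.03 for Stat5a and 0.02 for Stat6, and Jak3, the kinase of the common gamma chain, had 0.01.

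**Figure D4:**
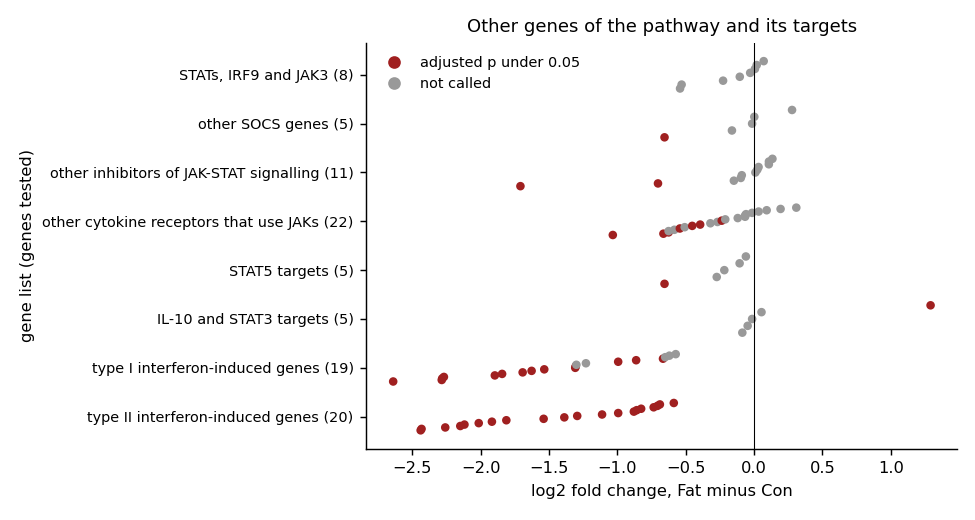
Log2 fold change of Fat against Con for each tested gene (points) of the other lists, in red where limma's adjusted p-value was under 0.05. In the list of other SOCS genes 1 gene was called, and in the type II interferon list all 20 were.

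Of the other 5 SOCS genes 1 was called lower and 0 higher, beside 5.0% and 3.99% of all genes tested. Socs2, which like Cish is a STAT5 target, was at 12.5 and 11.8 CPM in Con and 8.47 and 7.0 CPM in Fat. Both Fat libraries lay below both Con libraries, and Socs2 fell by 36.5% (limma, log2 fold change -0.65, standard error 0.12, adjusted p = 0.0174). The call was lost without Con replicate 1 (-0.61, adjusted p = 0.0537) and without Fat replicate 2 (-0.52, adjusted p = 0.0549). Socs4, Socs5, Socs6 and Socs7 were not called, with log2 fold changes of 0.28, 0.00, -0.16 and -0.01. Socs4 was above Con in both Fat libraries, at 15.1 and 16.2 CPM beside 13.2 and 12.6 CPM (limma adjusted p = 0.095).

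Of 5 STAT5 targets 1, Socs2, was called lower and 0 higher, beside 5.0% and 3.99% of all genes tested. Pim1, Bcl2l1, Osm and Ccnd2 had log2 fold changes of -0.11, -0.22, -0.27 and -0.06. Both Fat libraries lay below both Con libraries for 4 of the 5, beside 26.2% of all genes tested. Bcl2l1 was called without Con replicate 1 (-0.31, adjusted p = 0.0457). Their changes were not tested against those of Cish and Socs2. Of 5 targets of IL-10 and STAT3, a route that also induces Socs3, 0 were called lower and 1 higher. This was Il1rn, the IL-1 receptor antagonist (log2 fold change 1.29, limma adjusted p = 0.00286), and Bcl3, Nfil3, Sbno2 and Etv3 lay between -0.09 and 0.05.

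Among 11 further inhibitors of JAK-STAT signalling, 2 were called lower and 0 higher, beside 5.0% and 3.99% of all genes tested. Usp18, an interferon-induced protein that blocks IFNAR2, was at 16.5 and 11.6 CPM in Con and 6.19 and 2.78 CPM in Fat (log2 fold change -1.71, limma adjusted p = 0.0237, and 0.0663 with DESeq2 and 0.0528 with TPM). Ptpn6, the phosphatase SHP-1 of blood cells, was at 462.5 and 445.8 CPM in Con and 289.1 and 269.2 CPM in Fat (log2 fold change -0.70 with standard error 0.06, adjusted p = 0.00286 in limma). In both genes the libraries separated by medium. The other 9, among them the phosphatases Ptpn1, Ptpn2 and Ptpn11 and the PIAS genes, lay between -0.15 and 0.13.

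Other cytokine receptors that work through Janus kinases were represented by 22 tested genes, with a median log2 fold change of -0.25. Of these limma called 7 lower and 0 higher, beside 5.0% and 3.99% of all genes tested. Il21r, the IL-21 receptor, was at 152.4 and 141.1 CPM in Con and 99.2 and 86.4 CPM in Fat (log2 fold change -0.66, limma adjusted p = 0.00497). Il12rb2, a chain of the IL-12 receptor, fell from 4.50 ± 0.729 to 2.14 ± 0.305 CPM (log2 fold change -1.03, limma adjusted p = 0.0164). Il27ra and Il2rg, the latter the common gamma chain, had log2 fold changes of -0.54 and -0.39 (limma adjusted p = 0.027 and 0.0318). The call of Il27ra was lost without any 1 library (adjusted p = 0.0525 to 0.112), and that of Il2rg without Con replicate 1 (0.0921) or Fat replicate 2 (0.125). Il13ra1, Il15ra and Il4ra were also called lower, and all 3 lost the call with TPM (adjusted p = 0.0869, 0.0768 and 0.0852). Il13ra1 and Il15ra lost it without Con replicate 1 (0.0824 and 0.141) and without Fat replicate 2 (0.103 and 0.138), and Il4ra without any 1 library (0.0578 to 0.211). The receptors for GM-CSF and IL-3, which use JAK2 and induce Cish, were not called, with log2 fold changes of 0.31 for Csf2ra, -0.07 for Csf2rb, -0.21 for Csf2rb2 and 0.19 for Il3ra. The values of Csf2ra and Il3ra rested on Fat replicate 2. Without Fat replicate 1 they were called higher (0.60, adjusted p = 0.0033, and 0.50, adjusted p = 0.0286), and without Fat replicate 2 they were 0.01 and -0.11.

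The genes whose pattern over the 4 libraries was nearest to that of each called member were sought among genes averaging 5 CPM or more, by Euclidean distance of centred log2 values. For Socs3 they were Slamf8 (distance 0.0305), Mlkl (0.051) and 4933430I17Rik (0.0758). For Socs1 they were Tmem154 (0.0778), P2ry14 (0.0827) and Cd86 (0.106). For Cish they were Slco3a1 (0.0531), Ass1 (0.0566) and Gm5424 (0.0579), of which Ass1 and Gm5424 had the same reads in 3 libraries and may share them. For Jak2 they were Bub1 (0.011), Arl5a (0.0178) and Gsdmd (0.0233). These distances over 4 libraries are a description.

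**Figure D5:**
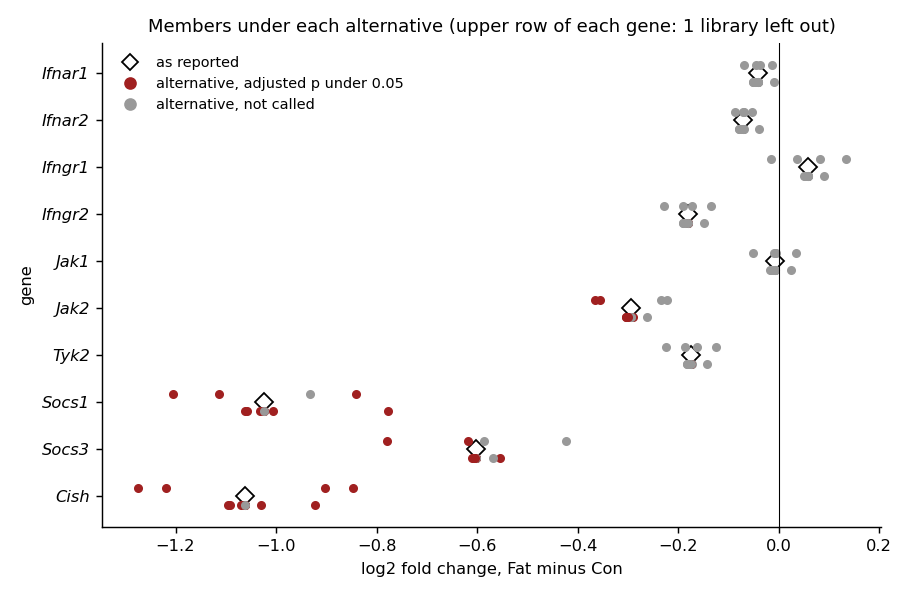
Log2 fold change of Fat against Con for each of the 10 genes as reported (diamonds) and under each alternative (dots, with the fits that leave out 1 library in the upper row of each gene), in red where the adjusted p-value was under 0.05. The inhibitors stay between -1.28 and -0.42, and Ifngr1 and Jak1 lie on both sides of 0.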

How the data were processed

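RNA-seq values of 4 libraries (Con and Fat, 2 each) were used. The authors sequenced single reads of 75 bases from stranded mRNA libraries. CPM and TPM values per gene were deposited by the authors. The labels name the build GRCm39, and the aligner, counter and annotation are not given in the sources used here. The paper names edgeR for the comparison, without its test.

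Dividing the deposited CPM by the value of 1 read gave whole numbers (100% of values within 0.01 reads), so reads were recovered, and edgeR 4.0.16 (quasi-likelihood) and DESeq2 1.42.0 were run on them as alternatives, calling 490 genes higher and 648 lower with edgeR, and 456 higher and 595 lower with DESeq2. The main test was limma 3.58.1 in R 4.3.3 with a mean-variance trend on log2(CPM + 0.1), two-sided, for genes reaching 0.5 CPM in 2 or more libraries, with Benjamini-Hochberg adjustment over all 12470 genes. Fold changes are on that scale, which understates changes of low genes. The smallest p-value of an exact permutation test here is 0.333. Reads are not independent molecules, so the limit of 3 reads covers counting error only. Tests were checked on simulated data with the same dispersion for all genes and log2 changes of 1 and 2. That check does not cover changes as small as those of Jak2 and Socs3.

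The 10 genes and the lists (STATs, SOCS genes, other inhibitors, interferons, receptors, STAT5 and STAT3 targets, interferon-induced genes, cell markers) were chosen with earlier results of these data known. Named genes were all members, listed STATs and SOCS genes, Irf9, Jak3, interferons with reads, up to 4 called genes per other list and direction, and the 3 nearest patterns. Added after values were seen were Cd68, Emr1, the STAT5 and STAT3 targets and inhibitors not called, the receptors beyond 4 per list, and Fcgr1 and Mertk. Not every gene of the lists is reported here.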

Additional observations from a re-analysis of the deposited data

How the results depend on the processing

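The log2 fold changes of Socs1, Socs3, Cish and Jak2 were negative under every alternative in which they were tested, and none of the 10 genes was called higher in any. The members called lower numbered 2 when a mean of 5 CPM was required, a filter that removed Socs1 and so left no median for the inhibitors, 2 with TPM, 0 without the mean-variance trend, and 1 (Con replicate 1 omitted) to 4 when single libraries were omitted. Over all genes, 19 were called higher and 12 lower without the trend, 366 lower with TPM, and 216 to 519 higher and 313 to 612 lower when single libraries were omitted. The median of the inhibitors was -0.78 with a pseudocount of 1 CPM. The labels number the replicates in each medium without saying what a number shares. Libraries of the same number had correlated deviations (r = 0.20 over the tested genes). With 2 libraries per medium, swapping the numbers within a medium would only change the sign of this correlation. The value therefore does not show that a number marks a shared mouse or day. With the replicate block, calls over all genes were 1278 higher and 1242 lower, and Ifngr2 (limma adjusted p = 0.0206) and Tyk2 (0.0255) were added to the 4 called members. The block also called Stat2 (1.59e-08), Irf9 (0.0072), Bcl2l1 (0.0102) and Csf2rb2 (0.0217) lower and Socs4 (0.0265) and Csf2ra (0.0014) higher. Signs turned for genes near 0. With TPM the log2 fold change was 0.024 for Jak1, 0.0035 for Stat5a and 0.0175 for Socs7. With median-ratio scaling it was -0.0026 for Jak3 and -0.00703 for Socs5, which was -0.0027 with edgeR and -0.0066 with DESeq2. When single libraries were omitted it ranged from -0.0152 to 0.133 for Ifngr1, -0.051 to 0.0351 for Jak1, -0.0197 to 0.0583 for Stat6, -0.17 to 0.181 for Jak3, -0.0193 to 0.023 for Socs5 and -0.097 to 0.0686 for Socs7. The cause of these shifts was not tested. Between 70 and 147 reads per library on Socs1 limit its precision.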

Other observations

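Among the 7 tested macrophage markers limma called 2 lower in Fat and 0 higher, beside 5.0% and 3.99% of all genes tested. Fcgr1, an Fc receptor gene that interferon gamma induces, was at 278.1 and 242.0 CPM in Con and 165.6 and 120.7 CPM in Fat (log2 fold change -0.88, limma adjusted p = 0.0123), and Mertk, a receptor for dying cells, was at 232.0 and 215.1 CPM in Con and 187.3 and 172.1 CPM in Fat (log2 fold change -0.31, limma adjusted p = 0.0289). The call of Mertk was lost without Con replicate 1 (adjusted p = 0.0846), without Fat replicate 2 (0.145) and with TPM (0.0776). The remaining tested markers, Cd68, Csf1r, Itgam, Lyz2 and Cd14, were not called, with log2 fold changes between -0.41 and 0.09, although DESeq2 called Lyz2 lower (-0.42, adjusted p = 1.6e-06). Fcgr1 was lowest in Fat replicate 2, the library in which Socs1, Socs3 and Cish were lowest as well.

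Csf2ra, the binding chain of the GM-CSF receptor, was at 179.3 and 198.5 CPM in Con, 190.3 CPM in Fat replicate 1 and 287.0 CPM in Fat replicate 2. Il3ra was at 19.8 and 23.0 CPM in Con and at 19.7 and 30.3 CPM in Fat. In both genes Fat replicate 2 stood above the other libraries and Fat replicate 1 did not, and neither was called with all libraries. Without Fat replicate 1 both were called higher (adjusted p = 0.0033 for Csf2ra and 0.0286 for Il3ra).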
